A study of Homo sapiens with 12 samples.

Results

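The genes examined encode 6 cell-surface ligands and receptors through which antigen-presenting cells steer T cells: CD80, CD86, CD40, CD274 (PD-L1), PDCD1LG2 (PD-L2) and ICOSLG. They were chosen by name from 19962 protein-coding genes. H3K4me2, a histone mark of promoters and enhancers, was read in each gene's window, which is the gene body together with 50 kb on either side of its canonical start site on GRCh38. These windows held 32 of the 84577 H3K4me2 regions of the series, a region being a set of overlapping or touching peaks from the 4 treatments, and 5 of the 6 genes had at least 1 region. The neighbouring windows of CD274 and PDCD1LG2 overlap and share 4 regions, which are counted once in totals.

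The cells were U-937, a human leukaemia line with monocyte-like features that the labels call AML cells. They were kept for 24 hours in DMSO (the vehicle), in ATRA (all-trans retinoic acid) at 0.1 µM, in Corin at 0.1 µM, or in ATRA and Corin at 0.1 µM each. Corin joins an inhibitor of the demethylase LSD1 to an inhibitor of histone deacetylases and acts on the CoREST complex, which holds both enzymes and takes methyl groups off H3K4. Each treatment had 2 H3K4me2 libraries and 1 input library, but the deposited values are 1 pooled peak list per treatment. All results therefore compare lists made from 1 cell line, the spread between replicates is unknown, and no p-value is given. The labels do not say whether the 2 libraries came from separate cultures. No RNA or protein was analysed here, so a peak says nothing on its own about expression.

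A T cell that meets antigen needs a further signal to become active. CD80 and CD86 give it by binding CD28, and they restrain the T cell when CTLA-4 takes them instead. CD40 receives the CD40 ligand of helper T cells and switches the antigen-presenting cell on, ICOSLG binds ICOS, and CD274 and PDCD1LG2 bind the inhibitory receptor PD-1. Monocytes and macrophages regulate these genes through interferon and NF-κB signalling, and CD86 is widely used as a surface marker of myeloid differentiation in leukaemia cells.

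The DMSO list held 65172 peaks and the ATRA list 66385, whereas Corin had 73997 and the combination 83969. Relative to DMSO, the H3K4me2 depth recovered from the deposited fold enrichments and p-values was 1.017 (ATRA), 1.097 (Corin) and 1.199 (ATRA+Corin). A longer and deeper list can hold more weak peaks at any gene, and the part of this in the results below was not tested. The start sites of 9 of 10 monocytic and myeloid marker genes lay within 1 kb of a peak in every list, MPO being the exception in DMSO. The same held for 2 of 4 B lymphoid, 2 of 4 T lymphoid and 1 of 4 erythroid markers in every list, with a background over all protein-coding genes of 61.3% (DMSO), 61.5% (ATRA), 61.5% (Corin) and 62.3% (ATRA+Corin).

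Across the windows, DMSO marked 16 regions, ATRA 18, Corin 20 and the combination 30, and 11 of the 32 regions were in every list. The ATRA+Corin list alone held 7 regions, and Corin together with ATRA+Corin held 5. Of all 84577 regions, DMSO marked 50651, ATRA 55980, Corin 60428 and the combination 74264. How many of all regions had each of these patterns was not counted, so the 11, 7 and 5 describe the windows only. Gained means present in the treated list and absent from the reference list, and lost is the reverse. Against DMSO, ATRA gained 4 regions and lost 2. The gained share was 20% of the 20 regions in either list (95% Wilson interval 8.07 to 41.6%, counting error only), beside 16.4% gained and 7.58% lost over all regions of the series. Corin gained 7 and lost 3 against DMSO, a gained share of 30.4% (15.6 to 50.9%) beside 22.4% gained and 7.46% lost over all regions. ATRA+Corin gained 15 and lost 1, a gained share of 48.4% (31.97 to 65.2%) beside 34.9% gained and 4.55% lost. Against ATRA alone, the combination gained 14 and lost 2, or 43.8% gained (28.2 to 60.7%) beside 28.4% gained and 4.97% lost. It gained 10 and lost 0 against Corin alone, or 33.3% gained (19.2 to 51.2%) beside 24.0% gained and 6.59% lost. In each of these 5 comparisons the share near the 6 genes was above that of the series, which nevertheless lay within the Wilson interval. With all lists cut to an equal number of peaks, the gained share for the combination against DMSO was 27.3%, beside 21.3% over all regions.

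Counted by gene, a net gain of at least 1 region with ATRA+Corin was seen at 4 of the 6 genes, beside 62.2% of all protein-coding genes. For ATRA the count was 2 of 6, beside 33.6%, and for Corin it was 2 of 6, beside 45.1%. A net loss was seen only at CD80 with Corin among these 18 gene and drug pairs, with 11.4% of all genes as background. In the combination the background of a net loss was 6%, and in ATRA it was 13.9%. Against ATRA alone, the combination had a net gain at 4 of 6 genes (56.9% of all genes) and a net loss at 0 (6.49%). Against Corin alone, it had a net gain at 4 of 6 (49.7%) and a net loss at 0 (10.3%). By number of genes with a net gain, the set did not stand apart from the genome, but 6 genes are too few to show likeness. They include ICOSLG, which had no peak in any list, and CD274 and PDCD1LG2, whose windows share gained regions.

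The canonical start site itself was under a peak at 2 of the 6 genes in DMSO (47.3% of all genes), 3 in ATRA (48.1%), 2 in Corin (38.0%) and 3 in the combination (38.0%). These were CD86 and CD274 in every list, with PDCD1LG2 added in ATRA and in the combination. A peak lay within 1 kb of the start site at 4 of 6 genes in each list, beside 61.3% of all genes in DMSO, 61.5% in ATRA, 61.5% in Corin and 62.3% in the combination. CD86, CD274 and PDCD1LG2 were among them in every list. The remaining gene was CD80 in ATRA and CD40 in the other lists. The genes differed widely among themselves, as the map of their peaks shows.

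With Corin and with the combination, CD86 had the largest difference in covered length of the 6, whereas with ATRA the difference was 0.968 kb, below the 1.74 kb of PDCD1LG2, 1.05 kb of CD40 and 0.986 kb of CD274. Its gene lies at chr3:122055362-122121139 on the plus strand, and its regions numbered 5 in DMSO, 6 in ATRA, 8 with Corin and 12 with the combination. The length of the window under peaks was 6.74 kb in DMSO, 7.71 kb in ATRA, 13.4 kb in Corin and 21.6 kb in ATRA+Corin, so the combination covered 3.20 times the DMSO length and Corin 2.00 times. Among all protein-coding genes, the window difference of CD86 between ATRA+Corin and DMSO lay at percentile 98.6. The same difference lay at percentile 62.1 for PDCD1LG2, 59.3 for CD40, 50.5 for CD274, 25.8 for CD80 and 11.2 for ICOSLG. All 12 regions of CD86 lay inside the gene or over its first exon.

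The clearest change in shape was at the canonical start site. The covering peak was 242 bp wide in DMSO, 555 bp in ATRA, 2710 bp in Corin and 5785 bp in ATRA+Corin. It ranked at percentile 28.6 by −log10 q within the DMSO list, 50.5 within ATRA, 65.8 within Corin and 74.4 within ATRA+Corin. The number of H3K4me2 fragments over the summit was 31 in DMSO, 42 in ATRA, 57 in Corin and 105 in ATRA+Corin. Scaled to the DMSO depth, these were 31 (95% Poisson interval 21.1 to 44), 41.3 (29.8 to 55.8), 52.0 (39.4 to 67.3) and 87.6 (71.6 to 106), where the intervals cover counting error only. The combination lay above every other list with intervals that did not overlap, and the ATRA interval overlapped that of DMSO. Here and below, each value is read at the summit of the list's own peak. The lists are thus not compared at a single position, and the intervals do not cover the choice of summit. In DMSO and ATRA the summit lay 85 and 127 bp after the start site, and in Corin and ATRA+Corin it lay 1008 and 1174 bp after it, in the first intron. The 5785 bp peak reached 5197 bp past the start site. The 250 bases before this start site are shown from the RefSeq promoter table (GRCh38.p14), because the DMSO and ATRA peaks begin at their downstream end and the Corin peaks run across them. They hold 2 CpG dinucleotides, against a median of 11 over all promoters of that length.
CD86 promoter, chr3:122055112-122055361, plus strand: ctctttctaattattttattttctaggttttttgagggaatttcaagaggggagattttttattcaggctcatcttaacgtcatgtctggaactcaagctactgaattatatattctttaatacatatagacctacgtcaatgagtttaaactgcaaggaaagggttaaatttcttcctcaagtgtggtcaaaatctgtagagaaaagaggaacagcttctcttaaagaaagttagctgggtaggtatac

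A measure chosen after the data had been examined set this widening beside all genes. Within 5 kb of the start site, CD86 had 0.242 kb under DMSO peaks and 5.59 kb under ATRA+Corin peaks, a difference of 5.35 kb that lay at percentile 99.9 of all protein-coding genes. The Corin difference of 2.79 kb lay at percentile 99.2, and the ATRA difference of 0.313 kb at percentile 78.3. PDCD1LG2 had the largest ATRA difference of the 6, 0.825 kb at percentile 94.4, and CD40 the lowest, at percentile 6.97. At least 1 kb more was covered at CD86 alone among the 6 genes, both with Corin (15.9% of all genes) and with ATRA+Corin (22.8%), and at 0 of 6 with ATRA (3.60%). At least 1 kb less was covered at 0 of 6 genes with any drug, beside 0.606% of all genes for ATRA, 0.200% for Corin and 0.331% for the combination.

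**Figure D1:**
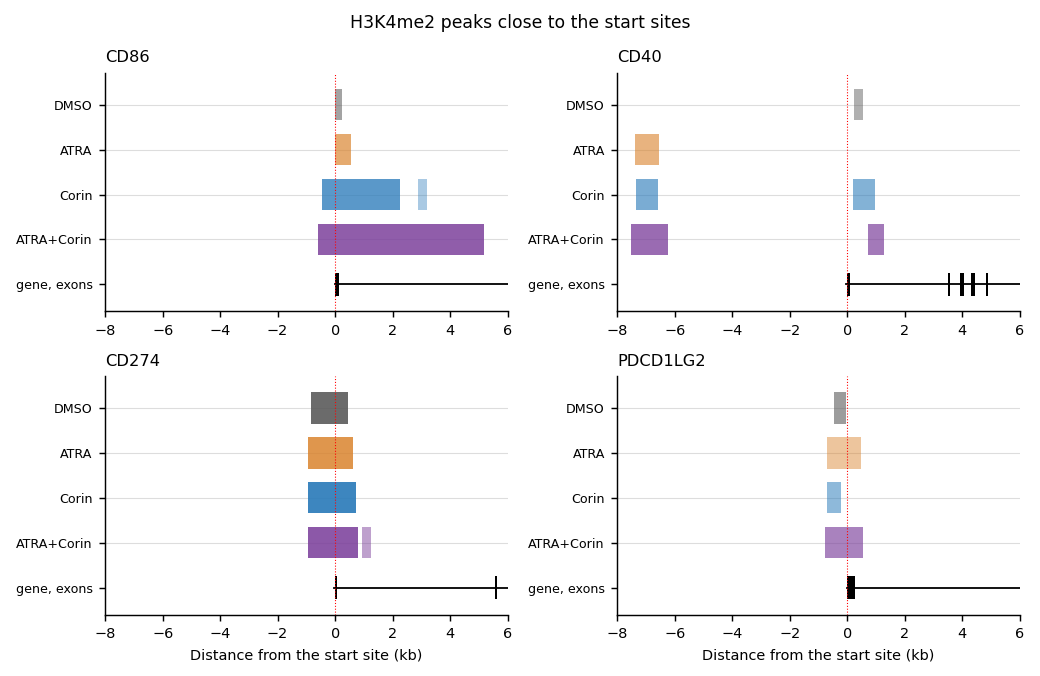
Peaks of the 4 lists from 8 kb before to 6 kb after the start sites of CD86, CD40, CD274 and PDCD1LG2, with darker bars for peaks of higher rank within their list. The CD86 peak widens from 242 bp in DMSO to 5785 bp in ATRA+Corin, while the CD274 peak stays between 1300 and 1762 bp.

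**Figure D2:**
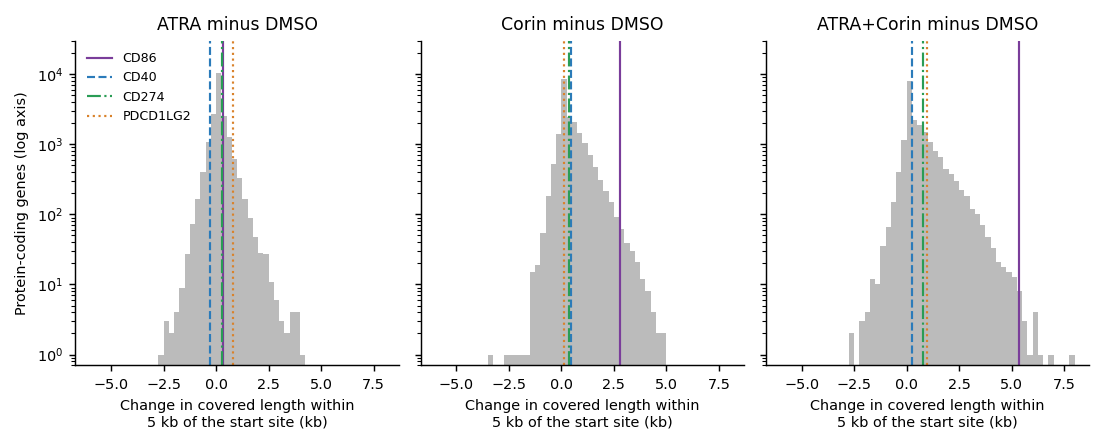
Change in the length under peaks within 5 kb of the canonical start site, in kb, for all protein-coding genes (grey, log count axis), with lines for 4 of the genes. CD86 sits at 5.35 kb in the ATRA+Corin panel and 2.79 kb in the Corin panel, and in the ATRA panel PDCD1LG2 (0.825 kb, percentile 94.4) lies above CD86 (0.313 kb).

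The first intron of CD86 was marked in every list as well. The region at chr3:122065447-122069507, in the first intron 10.1 to 14.1 kb from the start site, was the strongest CD86 region in DMSO and in ATRA. Its summit held 49 fragments in DMSO, 80 in ATRA, 58 in Corin and 79 in ATRA+Corin. At DMSO depth these were 49 (36.3 to 64.8), 78.7 (62.4 to 97.9), 52.9 (40.1 to 68.3) and 65.9 (52.2 to 82.1), so ATRA was highest and neighbouring values overlapped. The fold over input was 10.6 in DMSO, 18.45 in ATRA, 4.37 in Corin and 15.4 in ATRA+Corin, so Corin was lowest by fold. The input background at the summit was 8 in Corin and 1.92 in DMSO. The region at chr3:122073536-122078953 lies over an alternative CD86 start site. It was split into 3 peaks in DMSO and 2 each in ATRA and Corin, and was 1 unbroken peak of 5418 bp in ATRA+Corin. RefSeq gives this start site a promoter of its own, with 4 CpG dinucleotides in the 250 bases before it.
CD86 alternative promoter, chr3:122077534-122077783, plus strand: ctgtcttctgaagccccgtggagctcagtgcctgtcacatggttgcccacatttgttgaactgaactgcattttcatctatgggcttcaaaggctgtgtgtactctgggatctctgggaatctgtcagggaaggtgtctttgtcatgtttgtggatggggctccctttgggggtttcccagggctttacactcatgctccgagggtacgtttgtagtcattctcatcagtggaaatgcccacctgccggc

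The region at chr3:122101750-122103151, 46.4 to 47.8 kb from the start site and outside the exons, was in every list with more fragments where Corin was given. Its strongest summit held 26 fragments in DMSO, 24 in ATRA, 63 in Corin and 66 in ATRA+Corin. At DMSO depth the values were 26 (16.98 to 38.1), 23.6 (15.1 to 35.1), 57.4 (44.1 to 73.5) and 55.1 (42.6 to 70.05), so both lists with Corin lay above both lists without it, with no overlap of the intervals. Within their lists, these peaks ranked at percentile 33.3 in DMSO, 30.3 in ATRA, 72.7 in Corin and 66.7 in ATRA+Corin.

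The 7 regions that ATRA+Corin gained at CD86 were weak, with summits of 14 to 29 fragments. The strongest had a −log10 q of 8.45 in ATRA+Corin and 3.25 in Corin, and it was absent from DMSO and ATRA. ATRA gained a single region at CD86, 56.6 to 57.3 kb from the start site, with a −log10 q of 1.91, and Corin (5.24) and ATRA+Corin (3.44) also had it. No CD86 region was lost with any drug. Merging peaks within 1 kb took the net gain with ATRA+Corin from 7 to 2, and cutting every list to the same number of peaks also took it to 2. Under that last setting the covered length was 20.01 kb in ATRA+Corin and 12.6 kb in Corin. It drops whole weak peaks and keeps the deposited boundaries of the rest, so the part of depth in the width of the peaks was not tested.

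CD80, the other ligand of CD28 and CTLA-4, was almost bare. Its gene lies at chr3:119524293-119559614 on the minus strand, and its start site was under no peak of any list. The window had 0.499 kb under peaks in DMSO, 0.656 kb in ATRA, 0.695 kb in Corin and 1.03 kb in ATRA+Corin, against medians over all genes of 5.95, 6.73, 7.65 and 8.48 kb. A small region before the start site, at chr3:119562122-119562816, had 29 fragments at its DMSO summit, 27 in Corin and 30 in ATRA+Corin, and no ATRA peak. At DMSO depth these were 29, 24.6 and 25.03 fragments, within each other's intervals. The only peak close to the start site was a 209 bp ATRA peak at chr3:119559732-119559940, with 24 fragments and a −log10 q of 4.21. It overlaps the RefSeq promoter, which is printed for that reason and has 6 CpG dinucleotides.
CD80 promoter, chr3:119559615-119559864, minus strand: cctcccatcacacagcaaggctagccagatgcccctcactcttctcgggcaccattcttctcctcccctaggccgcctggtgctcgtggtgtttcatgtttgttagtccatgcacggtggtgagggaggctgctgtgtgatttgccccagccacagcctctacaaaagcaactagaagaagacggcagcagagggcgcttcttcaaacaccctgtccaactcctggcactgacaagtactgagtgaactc

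A more distant region, at chr3:119588090-119588696 and 6025 bp from a start site of ADPRH, held 19 fragments in DMSO, 30 in ATRA and 33 in ATRA+Corin and was absent from Corin. CD80 and CD86 thus differed at their start sites in every list, although both encode ligands of the same receptors.

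CD40, the receptor for CD40 ligand, lies at chr20:46118271-46129863 on the plus strand. The window had 3.48 kb under peaks in DMSO, 4.53 kb in ATRA, 5.86 kb in Corin and 6.13 kb in ATRA+Corin, with 3, 3, 5 and 5 regions. The largest region there, 27.4 to 30.9 kb before the CD40 start site, covers a start site of the neighbouring gene NCOA5. No list had a peak over the CD40 start site itself.

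Just after it, in the first intron, the region at chr20:46118511-46119602 had a 311 bp peak in DMSO, none in ATRA, a 749 bp peak in Corin and a 570 bp peak in ATRA+Corin. The summits held 24, 27 and 51 fragments in DMSO, Corin and ATRA+Corin, or 24 (15.4 to 35.7), 24.6 (16.2 to 35.8) and 42.5 (31.7 to 55.9) at DMSO depth. These intervals overlap. A region over exon 9, 10.2 to 10.9 kb from the start site (chr20:46128535-46129260), was in every list. Its summit held 37 fragments in DMSO, 51 in ATRA, 77 in Corin and 89 in ATRA+Corin. At DMSO depth the values were 37 (26.1 to 51), 50.2 (37.4 to 65.96), 70.2 (55.4 to 87.7) and 74.2 (59.6 to 91.4). Both lists with Corin lay above DMSO without overlap of the intervals, and ATRA overlapped all of them.

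Upstream of CD40, a region whose nearer edge is 6236 bp from the start site, at chr20:46110800-46112078, was gained by every drug treatment. It had no DMSO peak, and its summit held 32 fragments in ATRA, 30 in Corin and 60 in ATRA+Corin. At DMSO depth these were 31.5 (21.5 to 44.4), 27.3 (18.5 to 39.04) and 50.1 (38.2 to 64.4). The peak was 859 bp wide in ATRA, 768 bp in Corin and 1279 bp in ATRA+Corin, and its −log10 q was 12.2, 10.4 and 26.8. With only peaks of −log10 q of at least 5, this region was still gained in all 3 comparisons with DMSO. It is the strongest region that ATRA gained near any of the 6 genes, and the bases around its ATRA+Corin summit are shown. None of the motifs searched, which are spelled out below with CD274, is in them.
CD40 upstream region, chr20:46111063-46111263, plus strand: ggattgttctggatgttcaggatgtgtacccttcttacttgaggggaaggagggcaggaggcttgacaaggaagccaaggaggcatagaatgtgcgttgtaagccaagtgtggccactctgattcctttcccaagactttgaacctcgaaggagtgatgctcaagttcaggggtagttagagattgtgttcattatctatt

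A weaker region at chr20:46108569-46109022, upstream of that, was in Corin (14 fragments) and ATRA+Corin (28 fragments) only.

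CD274, which encodes the PD-1 ligand PD-L1, lies at chr9:5450503-5470566 on the plus strand. It had the highest-ranked start-site peak of the 6 genes in DMSO, and the peak had a like number of fragments in every list. It was 1300 bp wide in DMSO, 1578 bp in ATRA, 1677 bp in Corin and 1762 bp in ATRA+Corin. The summit held 90 fragments in DMSO, 105 in ATRA, 97 in Corin and 96 in ATRA+Corin. At DMSO depth these were 90 (72.4 to 111), 103 (84.5 to 125), 88.4 (71.7 to 108) and 80.1 (64.9 to 97.8), all overlapping. The peak ranked at percentile 80.4 in DMSO, 75.4 in ATRA, 87.5 in Corin and 78.7 in ATRA+Corin within its list.

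The promoter under this peak, 250 bases before the RefSeq start site, is printed because it held more of the motifs searched than any other member promoter in the table. The motifs were AGGTCA (the repeat unit bound by retinoid and other nuclear receptors), GAGGAAGT (PU.1), GAAANNGAA (the core of the interferon-stimulated response element), TTCNNNGAA (the interferon gamma activated site), GGANTTTCC (NF-κB) and TGANTCA (AP-1), on both strands. Capitals mark 5 matches: 2 overlapping interferon-response cores, then an interferon gamma site, an AGGTCA that overlaps it in 1 base, and an NF-κB match that follows directly. The sequence has 16 CpG dinucleotides.
CD274 promoter, chr9:5450292-5450541, plus strand: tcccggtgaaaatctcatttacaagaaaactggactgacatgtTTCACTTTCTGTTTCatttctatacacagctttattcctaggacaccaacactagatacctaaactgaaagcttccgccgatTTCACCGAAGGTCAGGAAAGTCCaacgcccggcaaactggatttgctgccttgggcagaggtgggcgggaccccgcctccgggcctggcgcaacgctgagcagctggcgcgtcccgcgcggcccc

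Among all 35116 promoters of that length in the table, 6.88% held the interferon-response core, 6.57% the interferon gamma site, 12.1% AGGTCA, 1.45% the NF-κB motif, 2.17% the PU.1 motif and 6.57% the AP-1 motif. The CD86 and CD80 promoters printed above held 0 matches. No printed sequence held AGGTCA paired in the same direction at a spacing of 1, 2 or 5 bases, which 0.0228% of all promoters did. The promoter table matched 4 of the 6 genes by symbol, without CD40 and PDCD1LG2. A match describes letters only, and no match says nothing about a factor.

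Upstream of CD274, a further region in every list (chr9:5436566-5438971) covered a start site of PLGRKT, a neighbouring gene. The window had 3.215 kb under peaks in DMSO, 4.20 kb in ATRA, 4.225 kb in Corin and 5.17 kb in ATRA+Corin. The 4 regions that ATRA+Corin gained against DMSO were small. The smallest distance to the start site was 924 bp, for a 312 bp peak with 20 fragments just after the main peak, and the other 3 lay between CD274 and PDCD1LG2. The net change of 3 regions was 0 when peaks within 1 kb were merged and 1 with an equal number of peaks in all lists.

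PDCD1LG2, which encodes PD-L2, lies at chr9:5510531-5571282 on the plus strand, and its start site is 60.0 kb from that of CD274. Its start-site region, chr9:5509739-5511082, was in every list but weak. The peak was 386 bp wide in DMSO, 1211 bp in ATRA, 510 bp in Corin and 1344 bp in ATRA+Corin, and the start site itself was covered in ATRA and ATRA+Corin only. Its summit held 23, 25, 22 and 34 fragments in that order, or 23 (14.6 to 34.5), 24.6 (15.9 to 36.3), 20.1 (12.6 to 30.4) and 28.4 (19.6 to 39.6) at DMSO depth, all overlapping. So the start-site peaks were wider in the lists with ATRA, with fragments whose intervals overlapped.

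The window had 2.75 kb under peaks in DMSO, 4.48 kb in ATRA, 2.32 kb in Corin and 5.65 kb in ATRA+Corin. Corin was lowest here and at none of the other 4 genes with peaks. That order did not hold when only peaks with a −log10 q of 5 or more were kept, since DMSO was then lowest with 1.84 kb, against 2.005 kb in Corin, 3.01 kb in ATRA and 4.66 kb in the combination. The net change with the combination was 4 regions, and 2 when peaks within 1 kb were merged or all lists had an equal number of peaks. The region at chr9:5557364-5559195, over exon 5, was the strongest of the window in every list. Its summit held 54 fragments in DMSO, 78 in ATRA, 45 in Corin and 78 in ATRA+Corin. At DMSO depth these were 54 (40.6 to 70.5), 76.7 (60.6 to 95.8), 41.02 (29.9 to 54.9) and 65.1 (51.4 to 81.2). ATRA and Corin did not overlap, and each overlapped DMSO. The fold over input at this region was 11.3 in DMSO, 10.9 in ATRA, 9.16 in Corin and 15.2 in ATRA+Corin. ATRA was thus not above DMSO by fold. Next to the exon 5 region, a region 49.8 to 50.5 kb from the start site (chr9:5560305-5561045) held 18 fragments in DMSO, 36 in ATRA and 27 in ATRA+Corin and was absent from Corin. A region 26.0 to 26.4 kb from the start site was absent from DMSO and Corin, and its summit held 13 fragments in ATRA and 37 in ATRA+Corin.

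Between CD274 and PDCD1LG2, the lists also differed. A cluster of 3 small regions from 42976 to 44100 bp after the CD274 start site was absent from DMSO and ATRA. The strongest, at chr9:5493518-5493784, was in ATRA+Corin only, with 31 fragments and a −log10 q of 9.38, and the middle one had 27 fragments in Corin and 37 in ATRA+Corin. The opposite was seen closer to PDCD1LG2, at chr9:5500039-5500620, where DMSO (19 fragments) and ATRA (20 fragments) had a weak peak and both lists with Corin had none. The bases around the strongest summit of the gained cluster are shown, with a match to TGANTCA in capitals, a motif held by 5.85% of all ATRA+Corin summit windows.
Region between CD274 and PDCD1LG2, chr9:5493542-5493742, plus strand: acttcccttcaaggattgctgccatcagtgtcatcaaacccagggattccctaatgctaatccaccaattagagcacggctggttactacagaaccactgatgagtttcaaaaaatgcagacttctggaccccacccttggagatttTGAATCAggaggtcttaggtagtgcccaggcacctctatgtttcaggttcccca

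**Figure D3:**
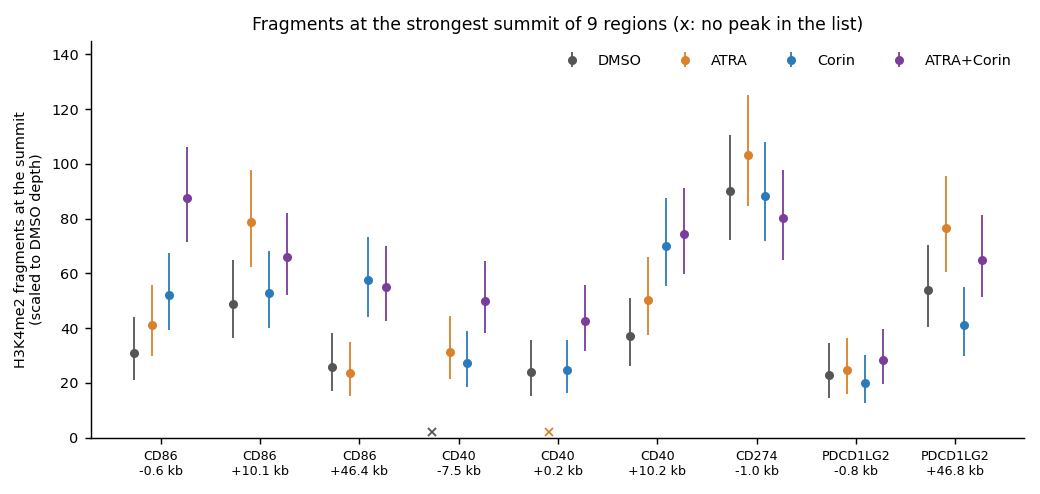
H3K4me2 fragments at the strongest summit of 9 regions, scaled to the DMSO depth, with 95% Poisson intervals for counting error; labels give the region's upstream edge relative to the start site, and a cross near 0 marks a list without a peak there. The peak over the CD86 start site has its highest value with ATRA+Corin (87.6), at a summit 1174 bp after the start site. The values of the peak over the CD274 start site lie between 80.1 and 103. No value is corrected for input.

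ICOSLG, the ligand of ICOS, lies at chr21:44215382-44241446 on the minus strand and had no peak in its window in any list. Of all protein-coding genes, 9.72% had no region. The nearest peaks were 56.5 to 56.6 kb before the start site and, beyond it, 59.2 kb away in ATRA, 59.3 kb in ATRA+Corin and 151 kb in DMSO and in Corin. The reference genome holds another copy of this sequence. Of stretches of 75 bases (the read length) taken every 50 bases, 55.5% of those in the ICOSLG window occurred again without a mismatch elsewhere on chromosomes 1 to 22, X and Y, and 100% did within 5 kb of the start site. In the windows of the other 5 genes 0.35 to 5.49% did. Most copies (54.7% of the stretches) lay at chr21:5010030-5071003, where ATRA had 2 peaks, Corin 1 and the other lists 0. How reads that match more than 1 place were treated is not given in the sources used here, and their part in the absence of peaks was not tested. The start sites of the neighbours PWP2, GATD3, DNMT3L and AIRE also had no peak within 1 kb in any list, and that of TRAPPC10 had one in every list. Whether the sequence at these neighbours occurs again elsewhere was not examined, so their lack of peaks has the same limit.

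**Figure D4:**
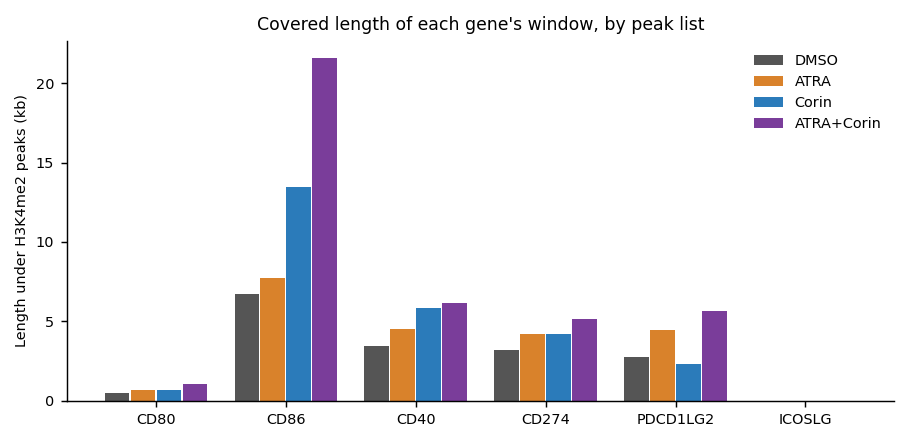
Length under H3K4me2 peaks, in kb, in the window of each gene for the 4 lists. CD86 goes from 6.74 kb in DMSO to 21.6 kb in ATRA+Corin, PDCD1LG2 has 2.32 kb in Corin, and ICOSLG is at 0.

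Genes of the same pathway were counted from lists chosen by function. Each gene's window was counted on its own, so a region shared by windows of neighbouring genes entered the count of each. Of 18 other ligands of antigen-presenting cells, 14 had a net gain of regions and 0 a net loss with ATRA+Corin against DMSO. Their median net change was 3 regions. Over all genes the median was 1, with a net gain at 62.2% and a net loss at 6%. With ATRA 9 of 18 had a net gain and 0 a net loss, beside 33.6% and 13.9% of all genes. With Corin 9 of 18 had a net gain and 2 a net loss, near the 45.1% and 11.4% of all genes. The largest net changes with ATRA+Corin were those of CD70, the ligand of CD27 (10 DMSO and 16 ATRA+Corin regions), CD48, a ligand of 2B4 (5 and 10), and CD58, the ligand of CD2 (8 and 13). CD48 had its change with Corin alone as well (10 regions). Of 19 genes that signal to or control the members, 15 had a net gain and 1 a net loss with ATRA+Corin, with a median of 2. Over all genes these were 62.2%, 6% and 1. With ATRA 10 of 19 had a net gain and 3 a net loss, beside 33.6% and 13.9% of all genes. With Corin 12 of 19 had a net gain and 4 a net loss, beside 45.1% and 11.4%. Among those with the largest net changes with ATRA+Corin were SPI1, which encodes PU.1 (6 DMSO and 13 ATRA+Corin regions), and CMTM4, a partner of PD-L1 (8 and 14).

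Of 9 receptors and partners found on T cells, 6 had a net gain and 1 a net loss with ATRA+Corin, with a median of 1. The gain is about that of all genes, which was 62.2% with a net gain and a median of 1, with 6% showing a net loss. With ATRA 5 of 9 had a net gain and 1 a net loss, beside 33.6% and 13.9% of all genes. With Corin 4 of 9 had a net gain and 1 a net loss, beside 45.1% and 11.4%. CD28 had the largest net change with ATRA+Corin, 3 regions. CTLA4, ICOS and HAVCR2 had 2 each, of which CTLA4 and ICOS are neighbours of CD28 whose windows can share regions, and PDCD1, which encodes PD-1, went from 6 regions to 5.

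The genes whose windows were most like those of the members in covered length over the 4 lists were found by the smallest sum of absolute differences. For CD86 they were SKAP2 (a sum of 1.29 kb), CA6 (5.04 kb) and CXCL17 (5.31 kb). SKAP2 had 6.87 kb in DMSO, 8.46 kb in ATRA, 13.1 kb in Corin and 21.6 kb in ATRA+Corin. For CD40 they were SSR3, MIOS and PGLYRP1 (0.434 to 0.606 kb), for CD274 VKORC1L1, RBX1 and TRPV6 (0.397 to 0.457 kb), for PDCD1LG2 HTR6, TTK and HOXB3 (1.07 to 1.5 kb), and for CD80 LGALS9B, CASP12 and KRTAP1-5 (0.142 to 0.266 kb). With 4 values per gene, such likeness is a description only.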

How the data were processed

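H3K4me2 chromatin immunoprecipitation libraries (2 per treatment) and inputs (1 per treatment) of U-937 cells were sequenced as 75-base paired reads, per the labels. The deposited values are 4 narrowPeak lists, 1 per treatment, named as ENCODE-style optimal sets reproducible by overlap. The submitters' processing notes name Trimmomatic, Bowtie2, Picard, MACS2 and hg38, without versions or thresholds. Each deposited peak has a score, a fold enrichment over input (a ratio), a −log10 p and a −log10 q at its summit, all from the authors' peak caller. Ranks by −log10 q were used within a list only.

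Peaks were merged across lists into regions (overlap of at least 1 bp, or touching) with pandas 2.3.3. Gene positions came from GENCODE release 44 (GRCh38), and promoters from RefSeq. Motifs were searched as exact letters on both strands. Depth per library is not in the files. Fragments, scaling and background at each summit were solved from the deposited fold and −log10 p (pseudocount 1, Poisson tail, scipy 1.17.1), within 0.001 for each of the peaks with a −log10 p below 280, which were 99.5% of the DMSO, 96.6% of the ATRA, 99.98% of the Corin and 99.6% of the ATRA+Corin peaks. The solver and the merging were tested on simulated data.

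Named were the 6 members, their start-site, strongest gained and strongest lost regions, the 3 genes of each pathway list with the largest net change, and the 3 most similar genes; not every such region is described, and 1 gene and some of the sequences that this rule selects are not reported here. The members and lists were chosen with earlier results of these data known. No test was made, since each treatment has 1 list. The alternatives kept only a −log10 q of 5 or more, or used equal numbers of peaks, equal depth, merging within 1 kb, a 50% overlap, windows of 10 and 100 kb, and a window of 50 kb without the gene body. Equal depth means that fragments at the summits were thinned to the lowest depth and peaks then below a −log10 p of 2.05 were dropped, with the boundaries of the rest kept as deposited. Covered length under the first 3 of these was added after the data were seen.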

Additional observations from a re-analysis of the deposited data

How the results depend on the processing

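Of 40 alternative values of the gained shares, 34 stayed within the Wilson interval of the value reported and 6 moved out of it, all 6 downward. The intervals are wide, so staying inside is a weak check. For Corin against DMSO, 48.3% with a 50% overlap still counted as inside 15.6 to 50.9%. Equal depth kept at least 99.3% of the peaks of every list, so it could change little. With lists cut to equal length, the gained share was 27.3% for ATRA+Corin against DMSO and 25% against ATRA, beside 21.3% and 15.55% over all regions in that setting. With peaks within 1 kb merged, it was 30.4% against DMSO, 25% against ATRA and 13.6% against Corin. The share over all regions was not computed with that merging, so these 3 values have no background. With windows of 10 kb and no gene body, the gained share was 10% for ATRA+Corin against Corin, beside 24.0% over all regions, which the window does not change. The cause was not tested, beyond that fewer peaks or fewer regions enter by construction. Of 108 alternative values of the net change at single genes, 68 kept within 1.5 times the reported count and 40 moved. The 68 include counts of 0 that stayed 0. Among these are values of ICOSLG, which has no peak in its window and could change only with the 100 kb window. With peaks within 1 kb merged, lists of equal length or windows of 10 kb, the net change of CD86 with the combination was 2, 2 and 1 regions against 7. In the window of CD86, the covered length with ATRA+Corin was 20.01 to 20.99 kb under 3 alternatives, against 21.6 kb. These drop whole weak peaks and cannot narrow the others, so they do not bear on the width of a peak. For ATRA minus DMSO it was 2.21 kb when only a −log10 q of 5 or more was kept, against 0.968 kb. In the window of PDCD1LG2, Corin minus DMSO changed sign, to 0.166 kb from -0.429 kb, with those peaks, and was -0.74 kb with lists of equal length. A gain of weak regions cannot be told apart from the longer list of the combination. No paired analysis was possible because the pooled lists carry no replicates, and no replicate could be left out for the same reason.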

Other observations

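Counts of regions and covered length differed in direction against DMSO at IRF8 with Corin and with the combination. Near IRF8, a transcription factor of monocytes and dendritic cells, 12 regions held a DMSO peak and 7 an ATRA peak, a net loss of 5, while the covered length was 19.5 kb in DMSO and 19.2 kb in ATRA. Corin had 10 regions there with 22.9 kb covered, and the combination 11 regions with 21.3 kb. A peak lay within 1 kb of the IRF8 start site in DMSO and in the combination, but not in ATRA or Corin. Near IRF1, which acts downstream of interferon gamma, DMSO marked 7 regions, ATRA 11, Corin 8 and the combination 12, with 11.4, 17.2, 15.3 and 17.99 kb covered. IFNGR1, a subunit of the interferon gamma receptor, had 4 regions in DMSO, 8 in ATRA, 6 with Corin and 9 with both drugs, with 9.40, 12.5, 12.9 and 15.3 kb covered. IRF8, IRF1 and IFNGR1 were singled out after their values were seen.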
